A study of Homo sapiens with 12 samples.

Results

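In 22Rv1 cells treated with PladB, 335 coding genes had almost no newly made RNA at their 3′ ends: the 3 PladB libraries together held at most 5% of the labelled reads that the 3 DMSO libraries held. The genes were chosen on exactly those values. Each had at least 20 labelled reads in every DMSO library, and its PladB sum was at most 5% of its DMSO sum. Of 18651 coding genes in the files, 6308 met the minimum and are called eligible here, and 335 of them (5.31%) were at or under 5%. The count rests in part on single libraries. It was 609 without PladB replicate 1, with 296 of the 335 among them, and 512 without DMSO replicate 2, with 316 among them. Leaving out a DMSO library also drops the minimum of 20 reads in it, so more genes can enter. ANKHD1-EIF4EBP3 and EIF4EBP3 share the same interval, so the 335 genes stand for 334 separate intervals. The fall from DMSO to PladB is therefore how the genes were found and not a result about them.

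The cells are 22Rv1, a human prostate cancer line, gene-edited so that SF3B1 carries serine in place of cysteine (C1111S), and every group carries this edit. SLAM-seq was used to tell new RNA from old: new RNA takes up 4-thiouridine, which after alkylation is copied as C at positions that are T in the genome, and reads that hold this conversion (T>C reads) are the labelled reads. The labels name genomic DNA as the molecule and a genomic library source, whereas their protocol describes RNA isolation, alkylation and QuantSeq libraries; the counts are read here as RNA, following the protocol. The 4 groups of 3 libraries each had DMSO (0.1%), the stereoprobe WX-02-23 (20 µM), the stereoprobe WX-02-43 (20 µM) or PladB (10 nM), the compounds for 3 h, followed by 4-thiouridine (100 µM, 1 h). The labels do not say whether the libraries of a group came from separate cultures or whether the edited line is 1 clone, so p-values reflect only the spread among these libraries, which may be technical.

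PladB is pladienolide B, an inhibitor of the SF3b complex. SF3B1 is the largest SF3b subunit, and SF3b holds the U2 snRNP on the branch site of an intron, a step that splicing needs. An unspliced transcript is often kept in the nucleus, ends early or is degraded, so 3′ end reads are a readout of transcripts that reached their poly(A) site. An mRNA that turns over fast is renewed often, so more of its reads carry label after a fixed pulse.

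Reads on coding genes ran from 12331501 (WX-02-23 replicate 2) to 21414162 (WX-02-23 replicate 1) per library, and T>C reads on them from 826620 to 2094217. Summed over coding genes, T>C reads in PladB were 62.3% of those in DMSO, while all reads were 107.9%. The median eligible gene had a PladB sum of 43.7% of its DMSO sum. In all reads, 10 of 10 luminal prostate markers were detected, with a summed level of 2640 to 3467 CPM (counts per 1000000 coding reads) per library. The 15 markers of basal, immune, endothelial, stromal and neuroendocrine cells summed to 35.0 to 74.7 CPM. The highest was the neuroendocrine marker SYP, at 17.9 to 45.6 CPM per library. The luminal markers KLK3 (3.66 to 16.7 CPM) and TMPRSS2 (7.89 to 21.3 CPM) were no higher than that. ACTA2 ran from 2.76 to 16.1 CPM, COL1A1 from 2.26 to 11.3 and CHGA from 0 to 8.13. CD3E, COL1A2, KRT5, TP63 and VWF were at 0 in every library.

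The reads of such a library lie just before the poly(A) site. As examples, the 3′ ends of 5 of the 12 genes with the highest DMSO sums are shown, all of which hold AATAAA. The rest of the 12 are not shown. Transcripts were matched by RefSeq accession, and their ends were not checked against the counted hg19 intervals. Each line is 30 bases of the GENCODE release 29 transcript, 5′ to 3′, with the polyadenylation signal AATAAA in capitals.
ZKSCAN1: tcatggtaaaacAATAAAttatcatctcta
SSH1: acaggtgcaaacAATAAAtctccttttgca
MCM10: tttaacttttaaAATAAAtttaaaacataa
RAB3GAP2: gtatattagtgaAATAAAttttcagctttc
PTCH1: tgagggaacataAATAAAgccaaattcaaa
The signal ended 18 bases before the transcript's last base in ZKSCAN1, 16 in SSH1, 12 in MCM10, and 13 in RAB3GAP2 and PTCH1. AATAAA was present on the transcript strand in the last 50 bases of 55.1% of the 325 genes with a matched transcript, against 59.8% of the 5726 other eligible genes with one. With the variant ATTAAA counted as well, the shares were 70.2% and 74.5%.

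**Figure D1:**
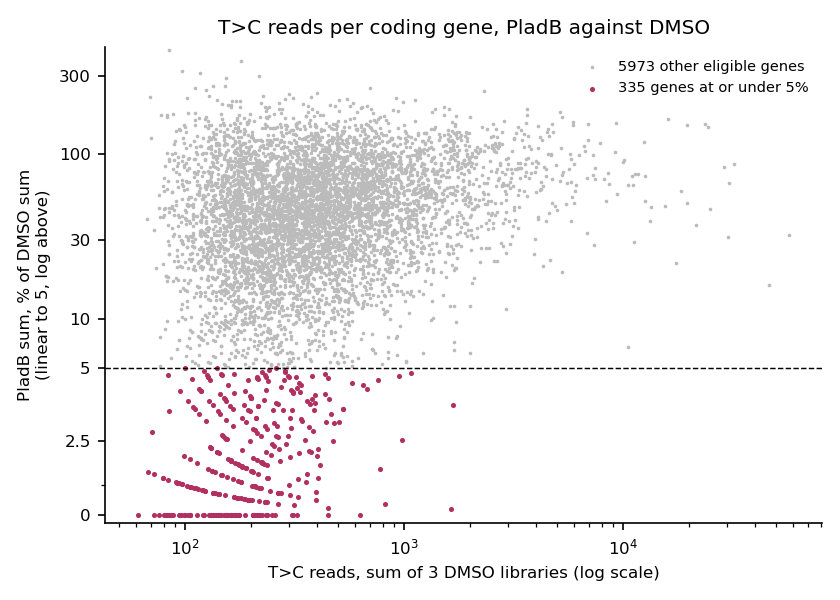
Each point is 1 of 6308 eligible coding genes, with its T>C reads summed over the 3 DMSO libraries on a log axis and its PladB sum as a percent of the DMSO sum (linear to 5%, log above). The 335 genes at or under the dashed 5% line lie mostly at low DMSO sums, with a median of 190 reads against 363 in the others.

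The genes were mostly lightly covered in DMSO. Their DMSO sums ran from 61 to 1678 T>C reads. Of 720 eligible genes with a DMSO sum of 60 to 149, 108 were at or under 5%, and the share was 8.06% at 150 to 299, 2.95% at 300 to 599, 0.855% at 600 to 1199 and 0.317% from 1200 up. No T>C read was found in any PladB library for 76 genes, 130 were at 0 in 2 PladB libraries, 100 in 1 library and 29 in none. In 233 of the 259 genes with any T>C read in PladB, a single library held more than 50% of them. In 193 genes each of the 3 PladB libraries was at or under 5% of the DMSO mean. The edge of the set is not sharp. TMEM47 (13 of 260 T>C reads), SLC31A2 (5 of 100) and ITSN2 (7 of 140) stood at exactly 5.00% just inside, and EPDR1 (5.01%), RBL1 (5.02%) and FUBP1 (5.06%) just outside.

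The gene with the most labelled reads in DMSO was ZKSCAN1, which encodes a zinc finger transcription factor (chromosome 7, 99631821 to 99642997). All positions here are the outer bounds of a gene's 3′ UTR intervals in hg19. ZKSCAN1 had 784, 402 and 492 T>C reads in the DMSO libraries and 27, 15 and 21 in the PladB libraries. SRRM4, a splicing factor known for neuronal microexons (chromosome 12, 119594604 to 119600856), had 604, 498 and 531 in DMSO and 2, 0 and 1 in PladB. SRRM4 was close to 0 in every PladB library, while ZKSCAN1 kept a few T>C reads in each. SRRM4 had 653, 290 and 590 T>C reads in WX-02-23 and 611, 324 and 513 in WX-02-43, and both ranges overlapped that of DMSO.

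Transcription regulators made up several of the other leading genes. AFF3, a scaffold of transcription elongation complexes (chromosome 2, 100163715 to 100167935), had 469, 259 and 346 T>C reads in DMSO and 16, 28 and 8 in PladB. CREB1, the cAMP response factor (chromosome 2, 208441372 to 208470713), had 569, 147 and 264 in DMSO and 5, 3 and 17 in PladB. TEAD1, the DNA-binding partner of YAP in the Hippo pathway (chromosome 11, 12958770 to 12966284), had 262, 186 and 374 in DMSO and 2, 1 and 0 in PladB. The DMSO libraries themselves spread widely for CREB1, where replicate 1 held more than the other two together.

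Replication genes also stood among the 12 with the highest DMSO sums. MCM10, which is needed to start replication forks (chromosome 10, 13251311 to 13253104), had 278, 292 and 191 T>C reads in DMSO and 1, 34 and 0 in PladB. GMNN encodes geminin, the inhibitor of the licensing factor CDT1 (chromosome 6, 24786028 to 24786327), and had 219, 169 and 265 in DMSO and 0, 2 and 27 in PladB. For both genes nearly all T>C reads in PladB came from a single library, replicate 2 for MCM10 and replicate 3 for GMNN.

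The remaining leading genes act in signalling, the cytoskeleton and membranes. PTCH1, the Hedgehog receptor (chromosome 9, 98205264 to 98209193), had 191, 255 and 181 T>C reads in DMSO and 0 in each PladB library. SSH1, a phosphatase that activates cofilin (chromosome 12, 109176466 to 109185875), had 345, 257 and 345 in DMSO and 13, 0 and 32 in PladB. RAB3GAP2, a subunit of a Rab regulator (chromosome 1, 220321610 to 220324592), had 200, 307 and 171 in DMSO and 17, 11 and 1 in PladB. These 3 differ in how empty PladB was: PTCH1 had nothing, SSH1 had reads in 2 of 3 libraries and RAB3GAP2 in all 3. TMEM43, a protein of the inner nuclear membrane (chromosome 3, 14183296 to 14185180), had 241, 115 and 222 in DMSO and 22, 1 and 3 in PladB. NBPF1 (chromosome 1, 16888922 to 16890437) had 237, 218 and 319 in DMSO and 0, 0 and 12 in PladB, but 27.3% of its reads mapped to several places, as its family has near-identical copies, so its counts are uncertain.

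**Figure D2:**
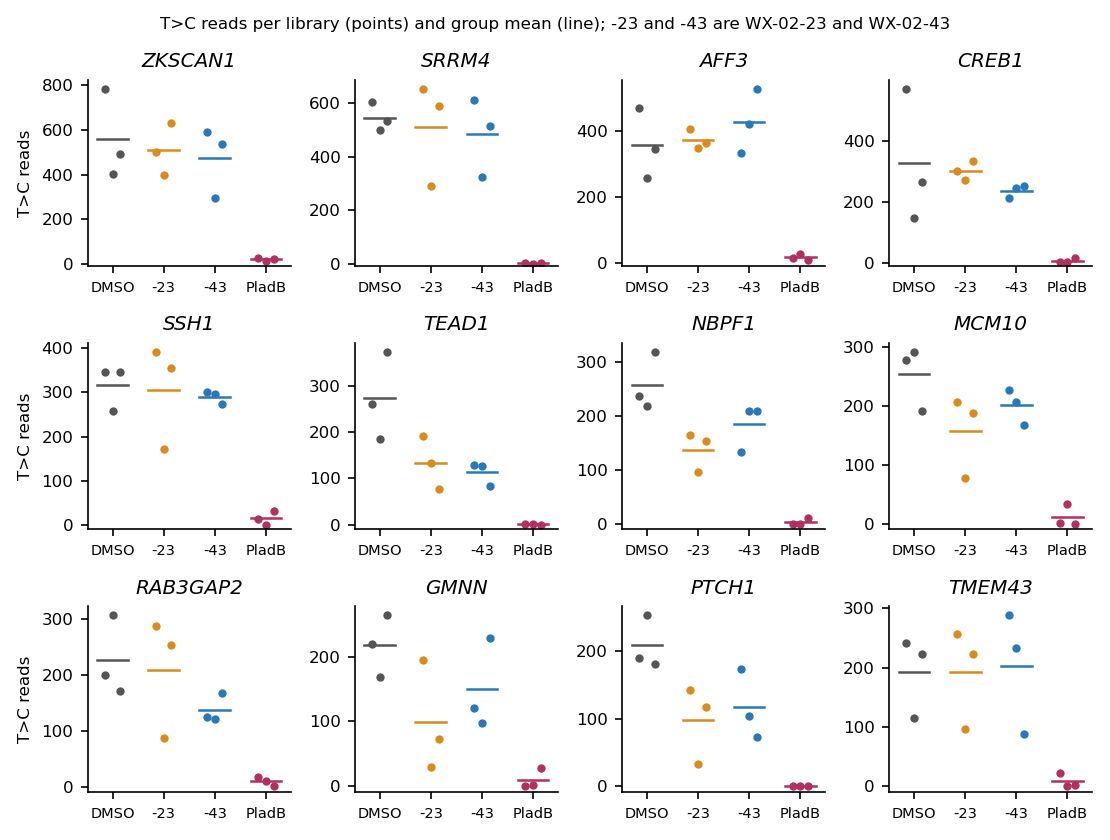
T>C reads in each library (points) and group means (lines) of the 12 genes with the highest DMSO sums, where the middle groups are WX-02-23 and then WX-02-43. In each panel the 3 PladB libraries lie below all libraries of the other 3 groups, for example at 2, 0 and 1 for SRRM4.

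Among the 76 genes with no T>C read in PladB, those with the most DMSO reads after PTCH1 were SCAF4, EFNA4, RNF24, MKL2, EIF4ENIF1, FBXL5 and MAST4. SCAF4, which binds the tail of RNA polymerase II and guards against early termination (chromosome 21, 33043313 to 33043711), had 119, 145 and 185 T>C reads in DMSO. EFNA4, an ephrin ligand (chromosome 1, 155041466 to 155042029), had 125, 90 and 111, and MKL2, a coactivator of serum response factor (chromosome 16, 14355302 to 14360636), had 30, 84 and 195. EIF4ENIF1, which carries eIF4E into the nucleus and represses mRNAs (chromosome 22, 31835345 to 31835865), had 92, 51 and 115. A count of 0 leaves room for up to 3 reads per library by counting error alone. That limit leaves out the spread between libraries, which was wide for MKL2, from 30 to 195 in DMSO.

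The 26 lists of gene functions held 125 of the 335 genes. A share of 5.31% is what all eligible genes gave. GTPases and their regulators had 16 of 132 eligible genes in the set (12.1%) and solute carriers and channels 13 of 115 (11.3%). Zinc finger genes had 17 of 238 (7.14%), ubiquitin ligases and deubiquitinases 13 of 189 (6.88%), and chromatin and transcription cofactors 11 of 189 (5.82%). Transcription factors had 6 of 127 (4.72%), cell cycle genes 6 of 109 (5.50%), protein kinases 6 of 153 (3.92%), and splicing and 3′ end processing genes 5 of 146 (3.42%). None of 145 ribosomal protein genes, 31 p53 targets, 24 heat shock genes or 11 tubulin genes was in the set, and 1 of 83 oxidative phosphorylation genes was (COX10). These shares are counts over lists of unequal coverage, and no test was made on them.

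The lists also differed as a whole in how much label PladB left. The median eligible ribosomal protein gene had a PladB sum of 80.5% of DMSO and the median oxidative phosphorylation gene 73.3%. Splicing and 3′ end processing genes stood at 61.4%, cell cycle genes at 44.7%, protein kinases at 32.1% and chromatin cofactors at 29.8%. In edgeR's fit of T>C reads, scaled by TMM, the median tested gene stood at -0.36 on the log2 scale in PladB relative to DMSO. There 26 of the 189 eligible chromatin cofactors were called lower after PladB and 9 higher, while 0 of the 145 ribosomal protein genes were called lower and 37 higher. Over all 10722 tested genes 5.91% were called lower and 4.72% higher. The tested genes include many that are not eligible, whereas the list counts hold eligible genes alone. The share called over all eligible genes is not given here. Whether chromatin cofactors or ribosomal protein genes stand apart from other eligible genes in these calls was therefore not tested. The called directions are relative to the fall in total T>C reads. The median ribosomal protein gene, at 80.5% of DMSO, had fewer T>C reads in PladB before scaling. A call is a Benjamini-Hochberg adjusted p under 0.05.

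Ubiquitin, kinase and death signalling genes gave several of the 335. TRIM26, a ubiquitin ligase (chromosome 6, 30152232 to 30153652), had 99, 166 and 176 T>C reads in DMSO and 8, 0 and 6 in PladB. TBK1, the kinase of innate immune signalling (chromosome 12, 64895162 to 64895899), had 135, 100 and 63 in DMSO and 9, 0 and 5 in PladB. RIPK1, a kinase at the branch between survival and cell death (chromosome 6, 3113574 to 3115421), had 63, 174 and 59 in DMSO and 0, 0 and 8 in PladB. CFLAR, which encodes the caspase-8 inhibitor c-FLIP (chromosome 2, 202001151 to 202037411), had 155, 212 and 85 in DMSO and 0, 1 and 0 in PladB. The rule itself caps these PladB counts. In all reads, PladB levels were 12.1% of DMSO for TBK1, 13.3% for RIPK1, 20.0% for TRIM26 and 48.5% for CFLAR.

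Genes of DNA replication and repair also differed in how much total RNA they kept. CDC6, a replication licensing factor (chromosome 17, 38458254 to 38459413), had 245, 100 and 130 T>C reads in DMSO and 6, 0 and 6 in PladB. E2F7, an E2F repressor of the cell cycle (chromosome 12, 77415026 to 77417794), had 217, 91 and 127 in DMSO and 0, 0 and 18 in PladB. BRCA1, a homologous recombination factor (chromosome 17, 41196312 to 41197800), had 128, 59 and 60 in DMSO and 4, 0 and 1 in PladB. All reads in PladB were 23.5% of DMSO for CDC6, 15.2% for E2F7 and 41.7% for BRCA1, and only 4.29% of BRCA1's DMSO reads carried label, against 33.3% of E2F7's.

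RNA processing and decay gave PCF11, CSTF2 and UPF2 among others. PCF11, a factor of cleavage and termination (chromosome 11, 82895937 to 82896836), had 70, 59 and 71 T>C reads in DMSO and 8, 0 and 0 in PladB, and 7.68% of its all-read level remained. CSTF2, a cleavage stimulation subunit (chromosome X, 100093351 to 100096509), had 149, 56 and 35 and then 0, 2 and 1, with 67.8% of its all-read level kept. UPF2, a nonsense-mediated decay factor (chromosome 10, 11962021 to 11963296), had 85, 98 and 82 in DMSO and 2, 0 and 8 in PladB. PCF11 and CSTF2 both act in 3′ end cleavage, and they kept very different amounts of total RNA while both had almost no T>C read in PladB.

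Total RNA of the 335 genes was lower after PladB but far from gone. All reads of a gene in PladB were a median of 41.7% of DMSO (CPM of coding reads), with quartiles of 23.4% and 58.9% and a range from 0 to 128%. The other eligible genes kept a median of 85.9%. Scaling by TMM in place of coding reads raised PladB to DMSO ratios by 0.26 on the log2 scale and gave medians of 49.9% and 102.5%. At most 25% was kept by 98 genes, 25 to 50% by 115, 50 to 75% by 87, 75 to 100% by 30 and over 100% by 5. In 280 of 335 genes every PladB library lay below every DMSO library in all-read CPM, where 40.9% of eligible genes did so, and in 0 genes did every PladB library lie above. Since labelled reads are part of all reads, unlabelled reads were counted alone, and a median of 49.5% of those was kept, against 92.0% in the other eligible genes. In bulk libraries fewer cells expressing a gene and less of its RNA per cell cannot be told apart.

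Several genes with almost no labelled read in PladB kept their total level. BCAT2, the mitochondrial branched-chain aminotransferase (chromosome 19, 49298319 to 49298682), had 105, 100.0 and 103 CPM of all reads in DMSO and 97.7, 107 and 108 CPM in PladB, while its T>C reads were 89, 110 and 23 in DMSO and 3, 1 and 0 in PladB. SDSL, a serine dehydratase-like enzyme (chromosome 12, 113875885 to 113876081), had 68.1, 51.6 and 57.9 CPM in DMSO and 57.0, 61.7 and 71.0 CPM in PladB. FOCAD (chromosome 9, 20995629 to 20995954), with 29, 25 and 31 T>C reads in DMSO and 1 in each PladB library, kept 106% of its all-read level. In these 3 genes the groups overlapped in all reads, and label was scarce even in DMSO, at 4.47%, 4.21% and 4.56% of their reads. MARVELD1 (128%) and UNC93B1 (111%) also kept their level, but 48.1% of UNC93B1 reads mapped to several places.

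At the other end were genes whose total RNA went with the label. BPTF, the largest subunit of the NURF chromatin remodeller (chromosome 17, 65978405 to 65980494), had 51.6, 31.3 and 44.7 CPM of all reads in DMSO and 2.17, 3.21 and 3.81 CPM in PladB, 7.20% of DMSO. EIF4ENIF1 had 15.6, 26.3 and 26.7 CPM in DMSO and 1.06, 0 and 3.93 CPM in PladB, and ZNF354A (chromosome 5, 178138522 to 178139060) had 8.11, 8.26 and 6.03 CPM and then 0.29, 0 and 0.38 CPM. ZNF225 (chromosome 19, 44636889 to 44638969) had 64, 39 and 103 reads of any kind in DMSO and none in PladB. The groups did not overlap in any of the 4 genes.

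Among the 335 genes, those with a larger labelled share tended to keep less of their total RNA. The share of a gene's reads with T>C was taken from the 6 stereoprobe libraries, which the rule did not use, and its median was 12.03% over the 335 genes and 10.5% over the other eligible genes. The 335 genes were split by that share into 4 groups of 83 or 84. The group with the lowest labelled share (0.114 to 7.38%) kept a median of 60.1% of all reads. The middle groups kept 42.8% and 39.5%, and the group with the highest share (18.8 to 83.0%) kept 24.7%. Unlabelled reads alone gave 65.7%, 48.8%, 48.8% and 34.6% in the same order, with no difference between the middle groups. A read from new RNA may hold no conversion. The labelled share is therefore not the whole new fraction, and unlabelled reads may include new RNA. Across the 335 genes Spearman's rho was -0.44 and Pearson's r -0.38, and across the 5973 other eligible genes -0.23 and 0.07. Genes are not independent replicates and all share the same libraries, so these are descriptions.

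**Figure D3:**
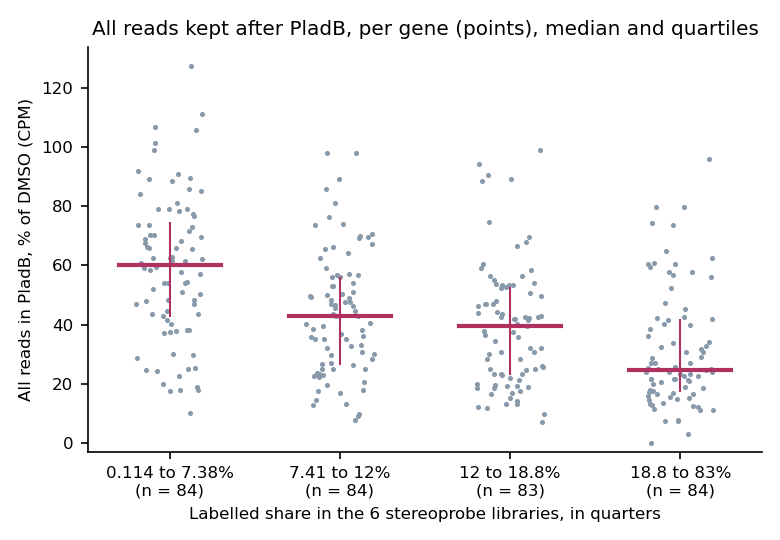
All reads in PladB as a percent of DMSO (CPM) for each of the 335 genes (points), in 4 groups by the labelled share in the 6 stereoprobe libraries, with the median (thick line) and quartiles (thin line). Medians go down from 60.1% in the least labelled group to 24.7% in the most labelled.

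The genes with the highest labelled shares in the stereoprobe libraries were ZNF225 (83.0%), HMGA2 (60.6%), SKIDA1 (58.5%) and ZNF417 (53.1%). HMGA2, an architectural chromatin protein of growth and development (chromosome 12, 66236395 to 66360071), had 205, 82 and 33 T>C reads in DMSO and 11, 0 and 4 in PladB, and kept 24.0% of all reads. SKIDA1 (chromosome 10, 21802407 to 21804024) had 335 T>C reads summed over the DMSO libraries and 13, 0 and 1 in the PladB libraries, and kept 62.4% of all reads. SKIDA1 departs from the order of the 4 groups, since its unlabelled reads were at 172% of DMSO. All 4 rest on few reads, with at most 16.3 CPM in any DMSO library.

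Summed over the 335 genes, the labelled share stood apart in PladB. It was 14.2%, 14.2% and 14.0% in the DMSO libraries and 0.672%, 0.344% and 0.902% in the PladB libraries, a contrast that the rule made. The same genes had 11.5% ± 0.524 (SD, n = 3) in WX-02-23 and 11.3% ± 0.805 in WX-02-43. For the other eligible genes the DMSO libraries gave 9.78% ± 0.413 and the PladB libraries 5.72% ± 0.199, with 9.91% ± 0.212 after WX-02-23 and 9.33% ± 0.283 after WX-02-43. Counted by position, 1.09% of covered T positions of the 335 genes were converted in DMSO. The values were 0.977% with WX-02-23, 1.23% with WX-02-43 and 0.0351% with PladB. That measure put WX-02-43 above DMSO, where the share of reads put it below. The other eligible genes showed the same split, with 0.927% of T positions converted in WX-02-43 and 0.725% in DMSO. They had 0.827% in WX-02-23 and 0.332% in PladB. Because the minimum of 20 reads was set in the DMSO libraries, genes that happened to be high there were favoured, and a lower stereoprobe value cannot be told apart from that choice.

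**Figure D4:**
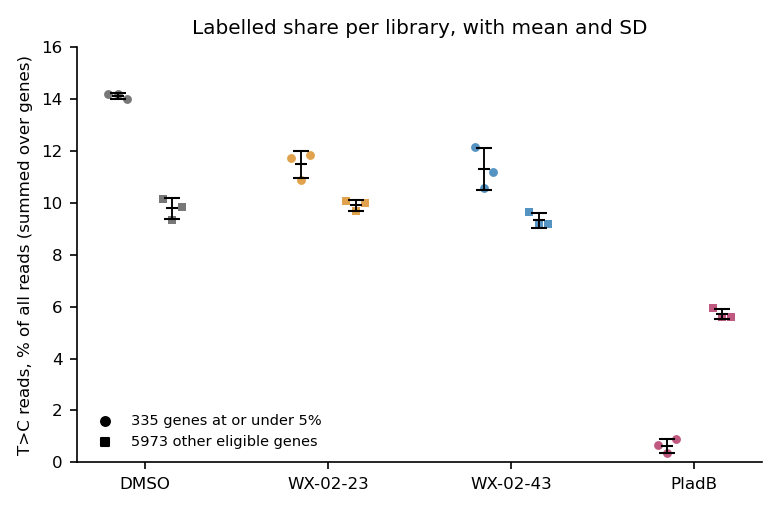
T>C reads as a percent of all reads, summed over the 335 genes (circles) or the 5973 other eligible genes (squares), per library, with mean and SD of each group. The 335 genes lie above the others in DMSO, WX-02-23 and WX-02-43 and under 1% in PladB.

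Genes with many exons were more frequent in the set. It held 0 of 173 eligible genes with 1 exon, 2.69% of those with 2, 4.36% with 3 to 4, 3.90% with 5 to 8, 5.43% with 9 to 16 and 11.1% with 17 or more. Genes with many exons also had fewer T>C reads in DMSO, with a median sum of 279 for 17 or more exons against 494 for 1 exon. Among genes with a DMSO sum of at least 300, the shares were 0, 0, 1.71%, 1.47%, 2.50% and 3.63% in the same order. The median PladB sum over all eligible genes went from 83.0% of DMSO at 1 exon to 54.7%, 53.7%, 48.3%, 39.6% and 27.8%. The 335 genes had a median of 12 exons against 8, a span of 48262 against 23275 bases, and a spliced length of 3807 against 2777 bases. GC content (48.6% and 48.0%), covered T positions per read (26.5 and 26.2) and multimapping reads (0.205% and 0.249%) were close. In 16 genes the interval overlapped a coding interval on the opposite strand.

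**Figure D5:**
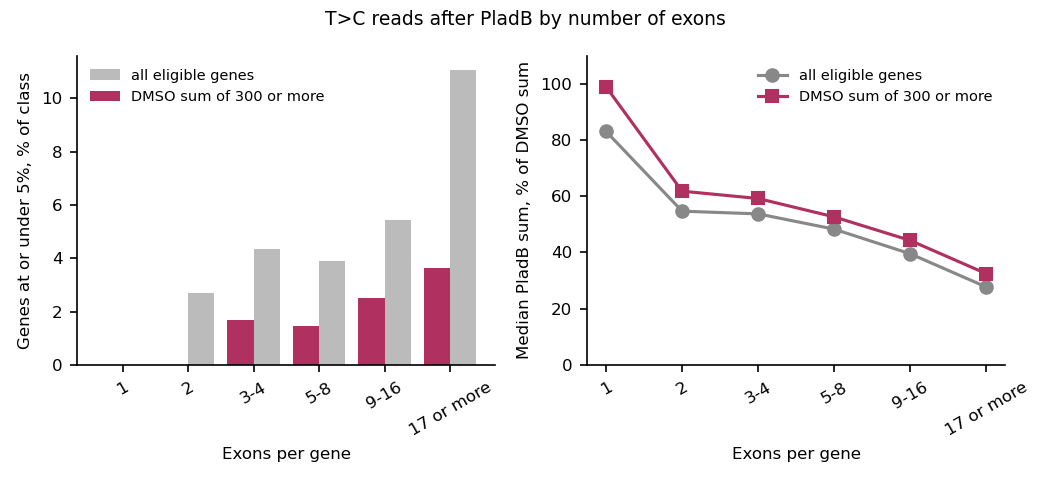
Left, the percent of eligible genes at or under 5% in each class of exon number, for all eligible genes and for those with a DMSO sum of at least 300; right, the median PladB sum as a percent of DMSO in the same classes. Both rows of points go down from 1 exon (83.0% over all eligible genes) to 17 or more (27.8%), and no gene with 1 exon is in the set.

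Under the stereoprobes most of these genes were still labelled. The median T>C sum was 75.8% of DMSO in WX-02-23 and 75.5% in WX-02-43, against 100% and 90.0% in the other eligible genes, with the same reservation about the choice in DMSO. Put in the place of PladB in the rule, WX-02-23 gave 7 eligible genes, 4 of them in the set (ALG6, FRAS1, PARD6G and PPCDC), and WX-02-43 gave 10 genes, 3 of them in the set (ALG6, FGFRL1 and PPARD). ALG6, a glucosyltransferase of N-glycan assembly (chromosome 1, 63902692 to 63904233), had 43, 29 and 24 T>C reads in DMSO, 0 in each WX-02-23 library, 0, 0 and 1 in WX-02-43 and 0 in each PladB library. Its all-read levels were 14.1, 11.4 and 14.7 CPM in DMSO and 8.79, 14.2 and 9.79 CPM in WX-02-43. ALG6 was near empty of label in all 3 treated groups, while its total RNA in WX-02-43 overlapped DMSO.

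T>C counts of such lightly covered genes were patchy in libraries the rule did not use. A WX-02-23 library at 0 was found in 58 of the 335 genes (17.3%) and a WX-02-43 library at 0 in 41 (12.2%), against 3.13% and 2.11% of the other eligible genes. PPARD, a nuclear receptor for fatty acids (chromosome 6, 35392565 to 35395968), had 69, 1 and 22 T>C reads in WX-02-23 and 0 in each WX-02-43 library, from 26, 62 and 44 in DMSO. Its all-read levels overlapped, at 14.1, 4.34 and 9.85 CPM in WX-02-43 and 11.4, 6.65 and 6.62 CPM in WX-02-23. The difference in T>C reads had an unadjusted p of 0.00631 and an adjusted p of 1 in edgeR.

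With a stereoprobe group in place of DMSO as the reference, the rule gave sets of about the same size but only partly the same genes. WX-02-23 as the reference gave 334 of 6196 eligible genes, of which 153 were shared (45.7% of the 335 and 45.8% of the 334). WX-02-43 gave 343 of 6350, of which 167 were shared (49.9% and 48.7%). In all, 111 genes passed with each of the 3 references and 126 with DMSO alone. Much of the difference lay in the minimum of 20 reads: without it, 267 of the 335 genes had a PladB sum of at most 5% of WX-02-23 and 260 of WX-02-43. Of the 12 leading genes 8 passed with each reference, ZKSCAN1, SRRM4, AFF3, CREB1, TEAD1, NBPF1, PTCH1 and TMEM43. MCM10 and GMNN passed with DMSO alone.

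In edgeR's fit, all 335 genes passed the filter on low counts in both T>C and all reads. Of these, 221 were called lower after PladB in T>C reads, where 5.91% of 10722 tested genes were, and 207 in all reads, where 16.3% of 13178 were. The T>C count depended on the fit: 78 of the 335 were called with only the 6 libraries compared, and 311 with DESeq2. The rule used that contrast, so these counts only describe the set.

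For WX-02-23 against DMSO, 1 of the 335 genes was called in T>C reads (0.224% of all tested genes were) and 2 in all reads (0.698% were). ARHGEF2, a microtubule-bound activator of RhoA (chromosome 1, 155916630 to 155917732), had 107, 89 and 30 T>C reads in DMSO and 546, 345 and 349 in WX-02-23. The rise was 2.40 on the log2 scale (SE 0.56, edgeR adjusted p = 0.0461), and every WX-02-23 library lay above every DMSO library. The call was lost without any single library of the 2 groups (adjusted p from 0.0756 to 0.292), with TMMwsp scaling (0.0504) and with a plain sum of intervals (0.280). WX-02-43 libraries had 338, 67 and 274 T>C reads, a log2 change of 1.67 with an adjusted p of 0.714, and PladB had 0, 1 and 3. In all reads ARHGEF2 rose from 52.98, 60.02 and 37.6 CPM to 86.6, 84.9 and 91.4 CPM (log2 change 0.79, SE 0.19, adjusted p = 0.0386). This call was lost without DMSO replicates 1 or 3 or any of the WX-02-23 replicates (adjusted p up to 0.238) and with a plain sum of intervals (0.0822).

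STC2, a secreted glycoprotein of the stress response (chromosome 5, 172741726 to 172744849), rose in all reads from 18.4, 30.8 and 35.3 CPM in DMSO to 51.3, 76.7 and 63.6 CPM in WX-02-23. The log2 change was 1.16 (SE 0.27, adjusted p = 0.0255, edgeR), and the groups did not overlap. It was lost without DMSO replicate 1 (adjusted p = 0.180) and without WX-02-23 replicate 2 (0.180) or 3 (0.0879), and with a plain sum of intervals (0.0794). WX-02-43 libraries stood between, at 38.0, 50.4 and 40.7 CPM, with an adjusted p of 0.829. In T>C reads STC2 had 148, 164 and 214 in DMSO and 316, 183 and 334 in WX-02-23, with a log2 change of 0.59 and an adjusted p of 1. PladB libraries had 0, 0 and 19 T>C reads and 3.47, 2.95 and 7.68 CPM of all reads.

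WX-02-43 against DMSO gave 0 calls among the 335 genes in T>C reads, where 0.0933% of tested genes were called, and 0 in all reads, where 0.167% were. At an unadjusted p under 0.05 in edgeR there were 5 and 18 of them (1.49% and 5.37%), where 3.8% and 5.86% of tested genes were. DESeq2 called 0 in both, with an adjusted p given for 14 and 335 of the genes.

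The stereoprobes were compared with each other at the same dose and time, the only contrast that owes nothing to the choice of the genes. It gave 0 calls among the 335 genes in T>C reads and 0 in all reads, where 0.0466% and 0.152% of tested genes were called (edgeR). At an unadjusted p under 0.05 in edgeR there were 3 and 12 of them (0.896% and 3.58%), where 2.85% and 5.52% of tested genes were. DESeq2 called 0 in both, with an adjusted p given for 2 and 55 of the genes. The median log2 difference was -0.14 in T>C reads over the 335 genes, against -0.0039 over all tested genes, and -0.03 in all reads. The data do not show that the compounds act alike on these genes, since the 95% interval of a gene's difference had a median width of 4.70 log2 units in T>C reads and 1.21 in all reads. For the better covered genes it was narrower: SRRM4 differed by -0.09 (95% interval -0.71 to 0.53) and AFF3 by -0.29 (-1.01 to 0.42), each with an adjusted p of 1. ARHGEF2 differed by 0.74 (-0.33 to 1.80), so a difference between the stereoprobes was not shown for this gene, and the interval allows one in either direction.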

How the data were processed

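Per the file headers, slamdunk 0.4.3 and a RefSeq-curated 3′ UTR annotation made the count tables; the submitters' processing notes name hg19. For each interval the authors deposited raw counts of all reads, T>C reads and multimapping reads, their CPM (used here for library totals alone), and counts of covered and converted T positions. The aligner's other settings are not given in the sources used here, and no library without 4-thiouridine was analysed.

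Among overlapping intervals of a gene, the one with the most reads over the 12 libraries was kept, and separate intervals were summed, which gave 18651 coding genes. Exons, spans and 3′ ends came from GENCODE release 29 transcripts, for 97.0% of the 335 genes. Tests used edgeR 4.0.16 in R 4.3.3 (quasi-likelihood, TMM, filterByExpr, Benjamini-Hochberg over all tested genes, all 12 libraries with group as the only term). DESeq2 1.42.0 was an alternative. The edgeR comparison of the stereoprobes was also run on simulated data. In T>C reads it recovered 2% of 2-fold and 22.4% of 4-fold changes, so it missed most of them. In all reads it recovered 72% and 95%. Changes were placed only in genes above a minimum mean CPM, so these shares do not cover genes with fewer reads. Each T>C table was scaled by its own T>C totals. The reads carry no molecular identifiers in these files, so count limits cover counting error only.

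The set and the gene lists were chosen with earlier results of these data known. Genes named were the 12 with the highest DMSO sum, up to 8 with 0 T>C reads in PladB, the 5 highest and lowest in all reads kept, the 4 highest and lowest in labelled share, the genes called outside PladB, those at the threshold, and the leading genes of each list; not all are printed. PPARD was named for its place under the stereoprobe rule after its values were seen.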

Additional observations from a re-analysis of the deposited data

How the results depend on the processing

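The number of genes at or under the threshold depended on the rule. It was 203 at 2.5%, 617 at 10%, 534 with a minimum of 10 T>C reads in each DMSO library and 151 with a minimum of 40. It was 232 with each library scaled to its T>C reads, 364 scaled to coding reads (333 shared with the 335), 347 with a plain sum of intervals and 330 without multimapping genes. Leaving out 1 library gave 344 to 609 genes: 609 without PladB replicate 1, of which 296 were among the 335, and 512 without DMSO replicate 2, of which 316 were. Where a DMSO library was left out, the minimum no longer applied to it, so more genes could enter. The median of all reads kept was 43.1% at 10% and 40.3% at 2.5%, 49.9% with TMM scaling, which was added after seeing the data, and 38.8 to 41.5% with 1 library left out. The labelled share in PladB was 1.30% at 10% and 0.230% at 2.5%.

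Calls over all tested genes moved with the tool. For PladB against DMSO in T>C reads, 1140 genes were called, 493 with only the 6 libraries compared (78 of the 335 genes in place of 221) and 1961 with DESeq2 (311), and 840 to 1154 with 1 library left out. For WX-02-23 against DMSO, 24 genes were called in T>C reads, 13 with a plain sum of intervals, 69 with DESeq2 and 12 to 23 with 1 library left out; in all reads 92 were called, 140 with no filter on low counts, 53 with a plain sum, 56 with only the 6 libraries, 146 with DESeq2 and 41 to 86 with 1 library left out. For WX-02-43 against DMSO, 10 genes were called in T>C reads, 16 with no filter and 47 with DESeq2; in all reads 22, 36 with no filter, 40 with DESeq2 and 13 to 29 with 1 library left out. For WX-02-23 against WX-02-43, 5 genes were called in T>C reads, 8 with no filter, 2 with a plain sum, 28 with DESeq2 and 1 to 3 with 1 library left out; in all reads 20, 33 with no filter, 12 with a plain sum, 38 with DESeq2 and 7 to 11. The last 2 comparisons called 0 of the 335 genes under each of these settings. For T>C reads, DESeq2 gave an adjusted p for only 14 of them in WX-02-43 against DMSO and 2 in WX-02-23 against WX-02-43. The cause of the moves in the number of calls was not tested.

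The replicate numbers did not pair the samples, and with the replicate block 1089 genes were called for PladB against DMSO in T>C reads and 3953 in all reads; ARHGEF2 and STC2 kept their calls (adjusted p = 0.0321 and 0.00531). Low T>C counts limit what can be seen for single genes.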

Other observations

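The same rule was run in the other direction, for coding genes with at least 20 T>C reads in each PladB library and a DMSO sum of at most 5% of the PladB sum. Of 3647 genes with that minimum, 1 passed, HLA-B, which encodes a class I antigen-presenting molecule. It had 0, 3 and 0 T>C reads in DMSO and 31, 20 and 22 in PladB. The stereoprobe libraries were uneven, with 17, 30 and 57 in WX-02-23 and 1, 0 and 19 in WX-02-43. HLA genes have near-identical relatives and many alleles, so its counts are uncertain, although 0.0830% of its reads were recorded as multimapping. It was named after its values were seen.

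Intervals of noncoding transcripts were not part of the set. Of 1070 with at least 20 T>C reads in each DMSO library, 18 (1.68%) had a PladB sum of at most 5% of the DMSO sum, against 5.31% of eligible coding genes. Coding genes were counted after joining their intervals and noncoding intervals singly, so the shares are set side by side with no test.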
